A study of Mus musculus with 677 samples.

Results

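Paneth, enteroendocrine and tuft cells are the rare secretory and sensory cells of the intestinal epithelium, and they made up 61 of the 677 single-cell libraries of this series. They were taken by the cell type that closes each library title: 22 Paneth, 32 enteroendocrine and 7 tuft cells. The other 616 libraries carry the titles Goblet, Enterocyte, TA (transit amplifying), Stem, and the 2 stages Enterocyte.prog.late and Enterocyte.prog.early, and these 6 types served as the reference. All cells were primary intestinal epithelial cells of C57BL/6 mice, and the labels name SMART-Seq2, a plate-based method that copies the whole length of a transcript, and beside it a droplet kit, without saying for which cells. WT mice gave 30 of the 61 cells and mice labelled as knockouts of Atg16l2, an autophagy gene and relative of ATG16L1, gave 31. Age, sex, gut region and the design of the knockout allele are not given in the sources used here, and neither is how the types were assigned. Since such labels are read as coming from the expression of these same cells, every difference between types below is a description and no test was run.

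Paneth cells sit at the crypt base and secrete alpha-defensins, lysozyme and other antimicrobial proteins from large granules. They are also a source of ligands for the neighbouring stem cells. Enteroendocrine cells release peptide hormones and serotonin into the tissue and blood, and single cells are known to make more than 1 hormone. They arise from secretory progenitors that switch on the transcription factor Neurog3. Tuft cells carry a tuft of long microvilli and the parts of a taste transduction cascade, need the transcription factor Pou2f3, and release interleukin 25, eicosanoids and acetylcholine.

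The library titles hold the codes M1 and M2, which were read as animals, so that each genotype has an M1 and an M2, and both occur in 2 runs. Values of 4 animals are always given in the order M1 and M2 of the WT, then M1 and M2 of the KO. Paneth cells numbered 6, 9, 4 and 3 in these animals, enteroendocrine cells 9, 3, 5 and 15, and tuft cells 1, 2, 2 and 2. Values are TPM, a share of a cell's transcripts after scaling for transcript length, with nearly the same total in every cell, so a gene that takes much of a cell's TPM lowers all others. The table keeps no sequencing depth. Genes above 0 TPM per cell ran from 4074 to 10472 (median 5134) in Paneth cells, from 4044 to 9389 (median 5590.5) in enteroendocrine cells, from 4190 to 7891 (median 6152) in tuft cells and from 3662 to 10098 (median 6170.0) in the other 6 types. Of the 61 libraries, 0 were identical to another.

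Marker genes of each label were found in most of its cells, though not every marker in every cell. Of a fixed list of 8 enteroendocrine markers, at least 1 was above 0 TPM in 28 of 32 cells of that label. The remaining enteroendocrine cells had none of the 8. For the Paneth and tuft markers this held in all 22 and all 7 cells. It is no independent check of labels that are read as coming from the same expression. All 22 Paneth cells had Lyz1, Defa24 and Mmp7 above 0 TPM, although 40.6% of the 616 cells of the other 6 types also had Lyz1 above 0 and 52.4% had Defa24 above 0. Of the 32 enteroendocrine cells, 22 had Chga, 20 had Chgb, 14 had Tac1 and 27 had Neurod1 above 0 TPM, against 73, 21, 2 and 2 of the 616. Trpm5 was above 0 in 7 of 7 tuft cells, in 15 of the 616 and in 0 of the 54 Paneth and enteroendocrine cells. The highest summed level of T cell markers in any cell was 8.13 TPM in Paneth, 313.7 TPM in enteroendocrine and 24.3 TPM in tuft cells, and B and plasma cell markers summed to at most 9.93, 39.5 and 53.8 TPM. Myeloid markers summed to at most 47.2, 204.3 and 46.6 TPM and stromal, endothelial and red cell markers to at most 22.9, 581 and 107.45 TPM. Neuron and glia markers, a list that holds genes such as Uchl1 and Ret that endocrine cells are also known to express, summed to at most 14 TPM in Paneth and 1452 TPM in enteroendocrine cells and were at 0 in all tuft cells.

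Differences between types were taken within each animal, as the log2(TPM + 1) of the type's mean over cells minus the unweighted mean of the 6 reference types, and are given as mean ± SD over the 4 animals. On this scale the difference of a weakly expressed gene is understated, and where the 6 types are near 0 TPM the difference is close to the type's own level and is no fold. A gene is called higher where the mean difference was at least 2 (4-fold on this scale) and at least 1 in each animal, and lower in the mirrored case, over 9641 kept genes. Paneth cells had 45 higher genes (0.467% of the kept genes) and 2363 lower genes (24.5%), enteroendocrine cells 538 (5.58%) and 2.95% of the kept genes, and tuft cells 2.03% and 917 (9.51%). These counts move with single animals: without KO M2 the lower genes rose in number to 58.3%, 5.81% and 16.04% of 9641 in the 3 types, and without WT M1, with its 1 tuft cell, the genes higher in tuft cells came to 4.07%.

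Alpha-defensin transcripts dominated the Paneth cells. In 18 of the 22 cells the 29 alpha-defensin rows of the table, of which 25 are in the fixed list, took between 70.6% and 90.5% of all TPM (median 84.7%). The other 4 Paneth cells stood far below: 3.89% and 12.4% in WT M1 and 5.67% and 8.11% in KO M2, all in run 1. The further Paneth products, among them lysozyme, intelectin and matrilysin, took 0.917% to 17.9% of TPM (median 6.42%) over the 22 cells. Defa24 alone averaged 180664 TPM per cell and 26.03% of all alpha-defensin TPM, Defa17 13.6% and Defa23 12.3%, so that these 3 genes held 51.9% of it. Expression of the family was broad as well, since 17 of the 29 alpha-defensin rows of the table were above 0 TPM in all 22 cells.

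**Figure D1:**
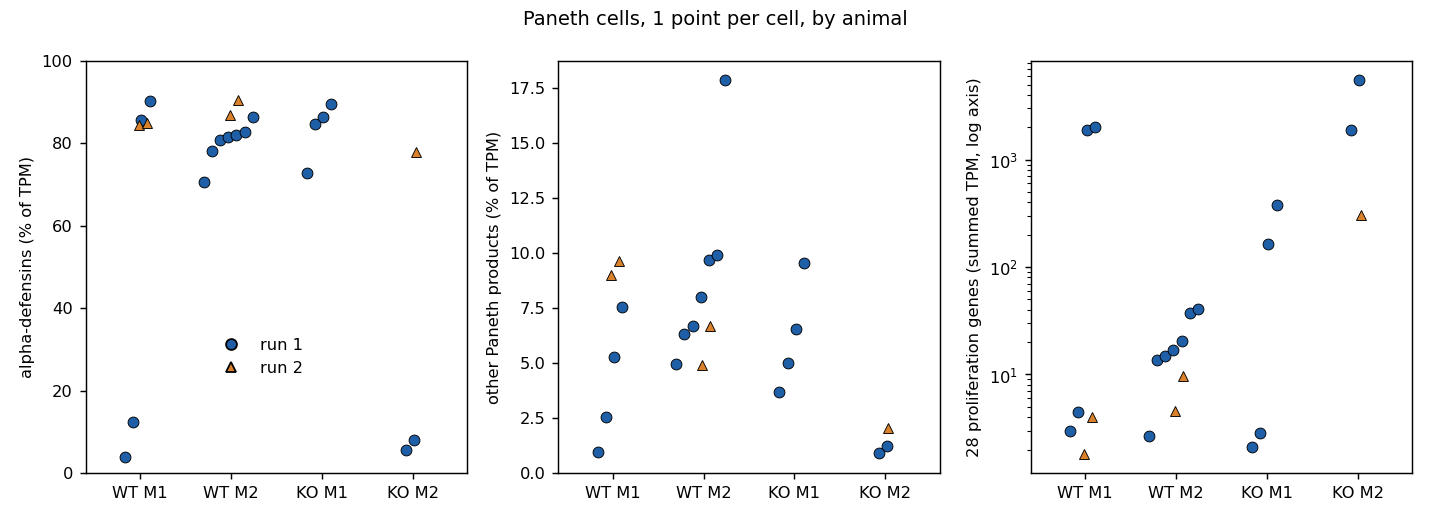
The 22 Paneth cells by animal, 1 point per cell (circles run 1, triangles run 2): the percent of TPM from alpha-defensins, the percent from other Paneth products, and the summed TPM of 28 proliferation genes on a log axis. The 4 cells under 20% alpha-defensin, 2 in WT M1 and 2 in KO M2, are also the 4 highest for proliferation genes, at 1869 TPM or more against at most 377.9 TPM in the other 18. These sums are as deposited, on a fixed total that the alpha-defensins share.

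These leading transcripts are near copies of each other. The end of the coding sequence, up to the stop codon, of the 3 most abundant defensins, which encode most of the mature peptide with its 6 cysteine codons, are shown to make this plain (GENCODE M21, 5′ to 3′; capitals mark bases that differ from Defa24, 7 in Defa17 and 6 in Defa23).
Defa24: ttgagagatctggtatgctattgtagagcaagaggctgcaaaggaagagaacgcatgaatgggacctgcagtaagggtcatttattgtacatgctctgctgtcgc
Defa17: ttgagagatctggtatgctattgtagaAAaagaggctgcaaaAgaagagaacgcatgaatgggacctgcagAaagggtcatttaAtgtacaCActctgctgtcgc
Defa23: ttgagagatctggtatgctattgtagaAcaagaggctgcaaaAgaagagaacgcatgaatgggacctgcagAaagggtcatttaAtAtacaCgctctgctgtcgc
Among the 17 alpha-defensin genes with a coding sequence in that annotation, all pairs were 64.4% to 100% identical (median 80.4%), and 15 pairs reached 95%. The split of reads among such copies depends on the authors' estimation, so the level of a single alpha-defensin is uncertain while their sum is less so.

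Of the 45 alpha-defensin names listed, 25 were in the table and 23 were kept, and 22 of these 23 were higher in Paneth cells than in the 6 reference types, with a median difference of 9.21 against -2.14 over all kept genes. Defa24 had mean levels of 162111, 209943, 225532 and 70109 TPM in the 4 animals, and differed from the 6 types by 8.60 ± 1.46 (SD, n = 4 animals). KO M2, with 3 Paneth cells of which 2 are among the low ones, had the lowest level. Defa4, with 7228, 4949, 12853 and 3079 TPM, showed the highest difference of the named genes, 10.34 ± 1.77. Defa23 differed by 9.58 ± 1.32 and Defa17 by 9.39 ± 1.70. Defa20 broke the pattern of the others in its spread over animals, with 5616 TPM in WT M1 against 24362 to 51574 TPM in the other 3.

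The promoters of 2 abundant defensins are printed to show motifs that they share. They are the 250 bases before the transcript start in RefSeq (GRCm38.p6), on the plus strand of chromosome 8, Defa22 at chr8:21162027-21162276 and Defa23 at chr8:21054790-21055039. Capitals mark matches to the E-box CAGATG and to the TCF/LEF core CTTTGAT, which reads ATCAAAG on the other strand.
Defa22: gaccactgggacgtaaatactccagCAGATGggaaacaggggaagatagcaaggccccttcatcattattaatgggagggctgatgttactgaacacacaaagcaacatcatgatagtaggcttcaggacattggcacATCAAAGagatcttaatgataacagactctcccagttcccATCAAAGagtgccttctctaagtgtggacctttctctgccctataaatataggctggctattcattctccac
Defa23: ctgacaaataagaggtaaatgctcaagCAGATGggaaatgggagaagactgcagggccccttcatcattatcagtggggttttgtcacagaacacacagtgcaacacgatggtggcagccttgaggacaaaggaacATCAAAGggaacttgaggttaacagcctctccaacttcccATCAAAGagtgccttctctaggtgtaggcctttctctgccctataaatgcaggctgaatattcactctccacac
The promoter table held 5 of the 29 alpha-defensin rows: all 5 had CAGATG and 4 had CTTTGAT, against 14.5% and 3.23% of all 27025 promoters. Of the 45 higher Paneth genes, 17 had a promoter there, these 5 among them, and 7 of the 17 held CAGATG (41.2%) and 4 CTTTGAT (23.5%). Of the other 3 motifs searched on both strands, the cAMP response element TGACGTCA was in 0 of these 17 (1.62% of all promoters). CTTTGAA and the octamer ATGCAAAT were each in 1 of the 17 (5.88%), against 4.64% and 1.61% of all promoters. These matches are letters only, the near copies are not independent of each other, and binding was not measured.

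Of the 24 other Paneth products listed, 21 were kept, 14 were higher and 1, the cobalamin carrier Tcn2, was lower, with a median difference of 4.74. Lyz1, which encodes lysozyme, had 31771, 42348, 32284 and 5939 TPM in the 4 animals and differed from the 6 types by 7.88 ± 2.18. The lowest value was again that of KO M2, and the difference ran from 5.28 to 10.26 over the animals. Mptx2, a pentraxin, differed by 8.10 ± 2.24, the colipase Clps by 7.63 ± 1.71, the lectin Itln1 by 7.54 ± 1.88 and the ribonuclease Ang4 by 7.49 ± 2.01. Mmp7, the protease that activates mouse alpha-defensins, was at 656, 1325, 809.9 and 113.8 TPM and differed by 5.93 ± 1.58. On the deposited scale it was not particular to the Paneth label: Goblet-labelled cells averaged 1317 TPM, and Paneth cells lay 1.01 below them in log2. That Goblet mean includes the defensin-rich Goblet-labelled cells described below, of which the WT M1 cell held 12406 TPM of Mmp7. The scale, on which alpha-defensins lower all other genes of Paneth cells, also enters this comparison.

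Genes of the stem cell niche did not reach the call in Paneth cells on the deposited scale. Of 17 listed ligands and regulators, 11 were kept and 0 were higher or lower, with a median difference of -0.77 against -2.14 over all genes. Wnt3, the Wnt ligand that Paneth cells supply to stem cells, was above 0 in 18 of 22 cells at 4.72, 13.2, 4.59 and 0.11 TPM. The Notch ligand Dll4 was above 0 in 14 cells and Egf in 9. The surface protein Cd24a and the transcription factor Sox9 were above 0 in all 22, and the receptor Kit in 19. On this scale 3 secretory regulators did not reach the call either. Bhlha15, a factor of granule-forming cells, differed by 2.23 ± 1.16, Spdef by 1.51 ± 1.76 and Atoh1, which starts the secretory lineage, by 1.10 ± 1.12.

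Alpha-defensins and other products took a median of 89.9% of the TPM of a Paneth cell, which by the fixed total of the scale leaves little for all other genes. TPM were therefore also rescaled without alpha-defensins, other Paneth products, hormones and granins, an alternative added after the data were seen. The median difference over all kept genes then moved from -2.14 to -0.72 in Paneth cells, and from -0.0001 to 0.10 in enteroendocrine and from -0.79 to -0.81 in tuft cells. Paneth cells then had 87 higher genes, all 45 earlier ones among them, and the lower genes dropped to 1.53% of 9641, all but 1 of which had been lower as deposited. By the deposited values the lower genes were led by Tmem254c (-5.02 ± 0.86 as deposited and -3.73 rescaled), the cell cycle genes Cdca3 (-4.69 ± 1.36 and -4.03) and Cenpa (-4.49 ± 0.73 and -3.73), the glutathione transferase Gstm3 (-4.60 ± 2.37 and -2.93) and Coq6 (-4.45 ± 1.36 and -3.05). Rescaling raised the median of the defensin list to 12.06 and that of the other products to 7.62, and turned that of the niche list to 1.61. Of the 11 kept niche genes 2 were then higher, Ephb3 and Cd24a. Of the 28 kept genes of secretory fate and Notch signalling 4 were then higher, Atoh1, Bhlha15, Ern2 and Selm (median 0.76).

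The 4 Paneth-labelled cells with under 20% alpha-defensin carried transcripts of other types. Their summed proliferation genes ran from 1869 to 5534 TPM against 1.81 to 377.9 TPM in the other 18, and their enterocyte markers from 822 to 3656 TPM against 9.8 to 313.8 TPM. Their stem cell markers ran from 144.05 to 3408 TPM against 5.04 to 981 TPM, so these ranges overlapped. They also had more genes above 0 TPM (6025 to 10472, against 4074 to 9180) and a median of 139030 TPM of the ribosomal precursor Rn45s against 9980.0 TPM. All these TPM are as deposited, on a fixed total of which alpha-defensins took a median of 6.89% in the 4 cells and 84.7% in the 18. What part of the gaps in Rn45s and in the summed markers comes from this scale was not tested. The cell with 3.89% alpha-defensin had the most genes of all Paneth cells and goblet markers of 20580.0 TPM. Without these 4 cells, and without the low-marker enteroendocrine and tuft cells described below, 78.6% of 9641 genes were lower in Paneth cells and the median difference over all genes was -2.97, while 21 of 24 kept alpha-defensins were higher.

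Cells of other labels reached Paneth-like defensin shares. At 20% or more of TPM there were 7 such cells, 5 of the 70 Goblet cells, 1 Enterocyte.prog.early and 1 Enterocyte.prog.late cell. The 4 of them that were Goblet cells of KO M1 in run 2 had 46.7%, 89.1%, 89.8% and 91.3% alpha-defensin, and 3 of these 4 had at most 218.6 TPM of Muc2, the main gel-forming mucin, at most 14.4 TPM of Fcgbp and 0 TPM of Zg16. The WT M1 Goblet cell differed from them, with 23.7% alpha-defensin beside 13207 TPM of Muc2 and 12406 TPM of Mmp7. KO M1 had 0 Paneth-labelled cells in run 2. With the 7 cells left out of the reference, an alternative added after the data were seen, Defa24 differed by 9.38 and Lyz1 by 8.23 from the 6 types, and Paneth cells had 0.467% of 9641 genes higher and 24.7% lower.

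Against Goblet cells alone, the type nearest in function, Paneth cells were higher in Defa4 (9.68 ± 4.17) and Defa23 (8.60 ± 4.23) and lower in the mucus genes Zg16 (-12.08 ± 3.71), Clca3 (-9.58 ± 3.30) and Fcgbp (-9.25 ± 2.81). Beside the large SD of the defensins stand the Goblet-labelled cells rich in them: Defa23 averaged 16401 TPM in the Goblet cells of KO M1 and 5.8 to 234.9 TPM in those of the other 3 animals. Against enteroendocrine cells the leading Paneth genes were Defa17 (12.46 ± 3.81) and Defa5 (12.20 ± 1.92), and the lowest were Chgb (-13.66 ± 0.92) and Chga (-12.49 ± 1.47). Against tuft cells Defa23 led (14.74 ± 2.45), Defa5 was listed at 0 in all 7 tuft cells, and Alox5ap was the lowest (-11.39 ± 0.23), above 0 in 1 Paneth cell. Lyz1 differed from tuft cells by 12.06 with an SD of 6.09, since 1 tuft cell of KO M2 held 1568 TPM of it.

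Enteroendocrine cells were defined by granins, the acidic proteins that pack hormone granules, and by the enzymes that process prohormones. Chgb had 13945, 14984, 26325 and 14141 TPM in the 4 animals and differed from the 6 types by 13.54 ± 0.42. Chga had 11835, 17831, 9978 and 9379 TPM and differed by 11.91 ± 0.77. Both were high in every animal, although 12 and 10 of the 32 cells were listed at 0 for them. Of the 21 granins and granule enzymes listed, 19 were kept, 16 were higher and 1 was lower, with a median difference of 7.28 against -0.0001 for all genes. Carboxypeptidase E (Cpe) differed by 9.91 ± 0.56, the prohormone convertase Pcsk1 by 7.51 ± 0.21, and Tph1, which makes serotonin from tryptophan in gut, by 9.33 ± 0.42. The lower member was Maoa, which breaks serotonin down, at -3.33 ± 1.21.

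The promoter of Chgb is printed because it is the gene with the highest difference and holds a motif long tied to granin genes. It is the 250 bases before the RefSeq transcript start at chr2:132781392-132781641 (GRCm38.p6, plus strand), and capitals mark a cAMP response element.
Chgb: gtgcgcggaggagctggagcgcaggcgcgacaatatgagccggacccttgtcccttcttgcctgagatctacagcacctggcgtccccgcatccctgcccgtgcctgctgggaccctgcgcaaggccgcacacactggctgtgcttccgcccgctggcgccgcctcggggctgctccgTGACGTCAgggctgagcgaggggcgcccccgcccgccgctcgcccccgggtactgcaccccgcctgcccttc
Of the 538 higher enteroendocrine genes, 403 had a promoter in the table, and 8 of them (1.99%) held TGACGTCA, against 2.94% of the promoters of all kept genes. Their shares were also near those of all kept genes for CAGATG (10.7% and 9.66%), CTTTGAA (3.23% and 3.49%), CTTTGAT (2.48% and 2.27%) and ATGCAAAT (2.23% and 1.39%).

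Transcription factors of the endocrine lineage were higher as a group: of 29 listed, 24 were kept and 18 were higher, with a median difference of 5.01. Neurog3, the factor that starts the lineage, had 2268, 185.3, 1806 and 1580.3 TPM in the 4 animals, a difference of 9.60 ± 1.61, and was above 0 in 15 of 32 cells. Neurod1, its target, had 362.55, 171.3, 574 and 365.75 TPM, was above 0 in 27 cells and differed by 8.40 ± 0.72. Rfx6 was also above 0 in 27 cells (8.10 ± 0.77), while Isl1 (7.74 ± 1.06) was above 0 in 12 and Lmx1a (7.24 ± 1.17) in 11. Pax4 differed by 7.63 ± 1.64 and Pax6 by 6.27 ± 0.50. Of the 28 kept genes of secretory fate and Notch signalling 9 were higher, among them Dll4, Hes6, Btg2 and Hepacam2 (7.66 ± 0.28), and 1 was lower, the Notch target Hes1, at 0, 3.04, 0 and 3.15 TPM.

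The release machinery followed. Of 29 exocytosis and ion channel genes, 21 were kept and 16 were higher, with a median difference of 4.83, led by the synaptotagmin Syt13 (7.01 ± 0.40), complexin Cplx2 (5.85 ± 0.22), the SNARE protein Snap25 (5.70) and the potassium channel Kcnh6 (5.56). Nutrient and irritant receptors were more uneven: 13 of 22 were kept, and the short-chain fatty acid receptor Ffar2 (6.94 ± 0.74) and the irritant channel Trpa1 (6.39 ± 1.001) were the 2 that were higher. Trpa1 was above 0 in 6 of 32 cells and Ffar2 in 22. Outside the lists, the filament gene Vim, often used as a marker of mesenchyme, was at 599, 540.4, 4467 and 933 TPM and differed by 9.98 ± 1.39. Gfra3, a neurotrophic factor receptor, was above 0 in 29 cells and differed by 9.24 ± 1.18.

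The lower genes of enteroendocrine cells were led by the antimicrobial lectin Reg3g (-6.90 ± 2.94), Fgfbp1 (-5.43 ± 2.17), the class I-like molecule H2-T3 (-5.29 ± 1.98), the glutamate transporter Slc1a1 (-5.17 ± 0.34) and the zinc transporter Slc39a5 (-5.14 ± 2.01). Slc1a1 was the steadiest of these over animals, and above 0 in 2 of 32 cells. Chgb and Chga, the leading genes against Goblet and against tuft cells, were listed at 0 in all 70 Goblet and all 7 tuft cells. Tac1 was above 0 in 1 Goblet cell and differed from that type by 10.85 ± 1.61. The lower genes against Goblet cells were led by Zg16 (-11.96 ± 2.93), Guca2a (-11.62 ± 2.29) and Muc2 (-11.32 ± 0.71). The tuft genes Rgs13 and Lrmp were listed at 0 in all 32 enteroendocrine cells.

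Hormones split the 32 cells. A hormone was counted in a cell at more than 100 TPM, and the highest such hormone was called the leading one. Sct, which encodes secretin, was counted in 22 cells and led 8, Tac1, the substance P precursor, was counted in 13 and led 7, and Cck in 12 and led 4. Gip was counted in 6 cells and led 2, Ucn3 in 5 and led 1, Gcg, the precursor of GLP-1, in 3 and led 1, and Sst in 2 and led 1. Ghrl, Iapp and Cartpt were each counted in 2 cells and Pyy, Gal and Gnrh1 in 1. The remaining 8 cells had no hormone above 100 TPM. In the other 6 types Sct passed 100 TPM in 39 of 616 cells, Gip in 2, Cck in 1 and Tac1 in 0.

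**Figure D2:**
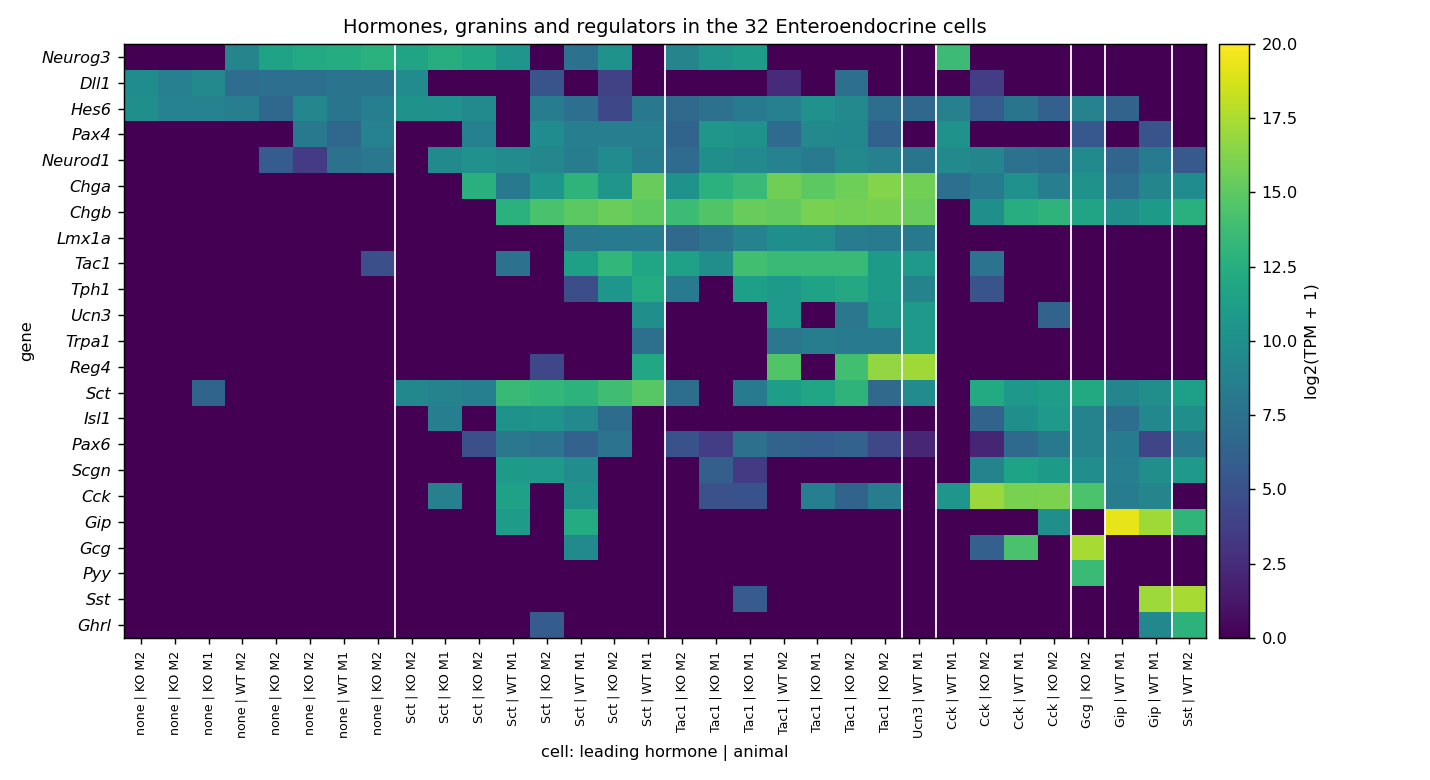
The 32 enteroendocrine cells in columns and 23 genes in rows, coloured by log2(TPM + 1) and ordered by leading hormone. Most cells led by Tac1 show Lmx1a and Tph1, most cells led by Cck, Gcg, Gip or Sst show Isl1 and Scgn, and the 8 cells without a hormone above 100 TPM show Dll1.

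Single hormones reached very high levels in single cells, which sets their spread over animals. Gip took 63.2% of all TPM in 1 cell of WT M1 (631635 TPM), and its animal means were 87339.7, 2841, 0 and 66.7 TPM, a difference of 7.51 ± 7.13. Sst reached 174989 TPM in 1 cell of WT M2, with animal means of 15256, 58329.7, 10.3 and 0 TPM (8.03 ± 7.44). Cck, with 0.789%, 0%, 0.0175% and 1.45% of TPM, differed by 8.12 ± 6.27, so it too was missing in 1 animal. Tac1, at 883, 4024, 5656 and 1747 TPM, and Sct, at 5805, 1593, 903 and 3055 TPM, were the 2 of 8 kept hormones that were higher in every animal, by 11.16 ± 1.28 and 8.12 ± 1.01. The list named 27 hormones, of which 26 were in the table, and the median difference of the 8 kept was 7.77.

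Most hormone-bearing cells carried more than 1 hormone. Of the 32 cells, 8 had none, 5 had 1, 3 had 2, 7 had 3, 6 had 4, 2 had 5 and 1 had 6 above 100 TPM. Sct accompanied nearly everything: it was found with Tac1 in 12 of the 13 Tac1 cells, with Cck in 11 of 12 and with Gip in 6 of 6. Cck met Gip in 5 cells and Tac1 in 5, and all 3 Gcg cells had Cck. All 5 Ucn3 cells had Tac1. The 2 Sst cells had both Gip and Ghrl, and the one in WT M1 held 147291 TPM of Gip beside 137306 TPM of Sst, with 4467 genes above 0 TPM, fewer than the median of the type.

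Other genes followed 2 groups of hormones, which were drawn after the values were seen. Of the 13 cells with Tac1 above 100 TPM, 11 had the transcription factor Lmx1a above 100 TPM, 9 had Tph1, 12 had the vesicular monoamine transporter Slc18a1 and 12 had Vim. Tph1, Slc18a1 and Lmx1a are known from enterochromaffin cells, which make serotonin. All 6 cells with Trpa1 and all 5 with Ucn3 were among these 13. Of the 10 cells with Cck, Gip, Sst or Gcg above 1000 TPM, 8 had Isl1, 9 had the calcium sensor Scgn and 8 had Mlxipl, while 1 had Lmx1a and 0 had Tph1. The fat receptors Ffar1, Ffar4 and Gpr119 were each above 100 TPM in 5 of these 10. The 2 groups shared 3 cells and left out 12. Isl1 and Lmx1a were each above 100 TPM in 11 cells and together in 2, and all 9 Tph1 cells had Lmx1a. Chga and Chgb together had a median of 53589 TPM in the Tac1 cells.

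Chga and Chgb together were under 1000 TPM in 11 enteroendocrine cells, of which 0 were among the Tac1 cells and 1 among the 10 with Cck, Gip, Sst or Gcg. The 4 animals held 2, 1, 2 and 6 of the 11. All 8 cells without a leading hormone were among them. Neurog3 was above 100 TPM in 8 of the 11 (median 3246 TPM, highest 13481 TPM), the Notch ligand Dll1 in 9, Hes6 in 11 and Btg2, an inhibitor of cell division, in 8. Of the other 21 cells, 7 had Neurog3, 1 had Dll1 and 6 had Btg2 above 100 TPM. The 11 cells also held more of other types' markers: goblet markers had a median of 6807 TPM against 736 TPM in the 21, stem cell markers 1323 TPM against 207.4 TPM, and proliferation genes 3412 TPM against 388 TPM. Olfm4, a stem cell marker, was above 100 TPM in 6 of them. Without the low-marker cells of all 3 types, 16 of 19 granule genes were still higher in enteroendocrine cells and 13 of the 25 transcription factors then kept, in place of 18 of 24.

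Tuft cells, although only 7, shared a sharp set of genes. Trpm5, the cation channel at the end of the taste cascade, had 157.8, 1527, 1794 and 928 TPM in the 4 animals and differed from the 6 types by 9.42 ± 1.45. The single WT M1 cell was the lowest. Rgs13, which ends G protein signals, led all genes with 1231, 3030.1, 6038 and 1149 TPM and 11.08 ± 1.13. Of the 18 taste genes listed, 9 were kept and 8 were higher (median difference 6.16, against -0.79 for all genes), with Plcb2 at 7.55 ± 1.42 and the gamma subunit Gng13 at 6.55. Gnat3, the taste G protein gustducin, was above 0 in 1 of the 7 cells, and Gng13 in 5.

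**Figure D3:**
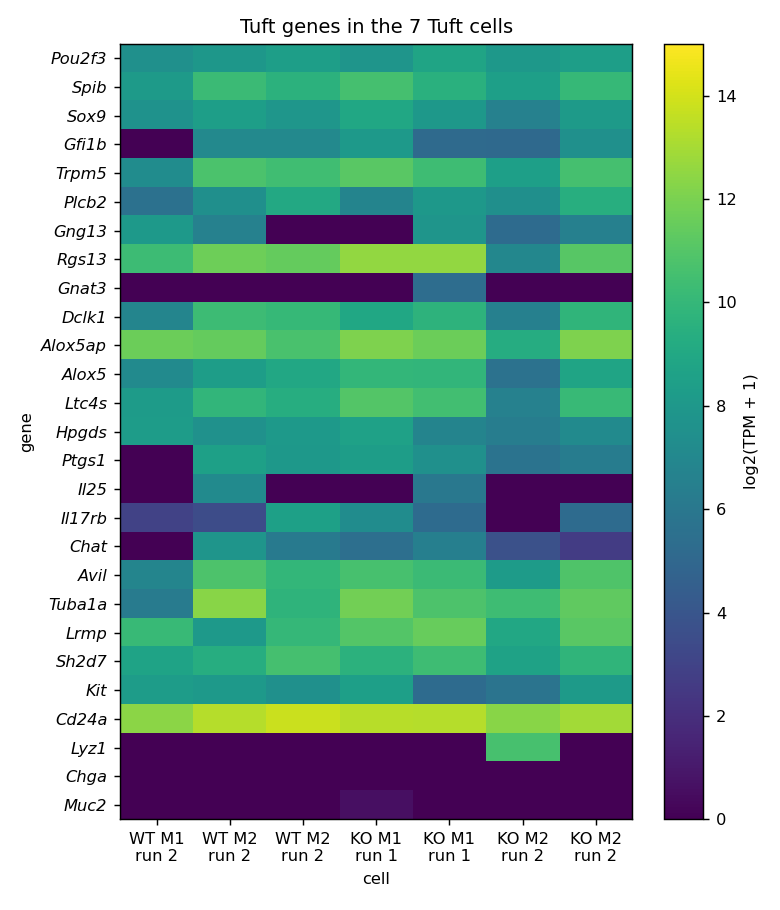
The 7 tuft cells in columns and 27 genes in rows, coloured by log2(TPM + 1). Alox5ap, Rgs13, Trpm5 and Pou2f3 are above 0 in all 7, Gnat3 in 1 and Il25 in 2, and 1 cell of KO M2 has the lowest tuft marker sum and 1568 TPM of Lyz1.

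Regulators and kinases followed, with 14 of 23 kept genes higher and a median difference of 5.83. Pou2f3, the factor that tuft cells need, had 186.4, 290.1, 328.96 and 301.07 TPM and had the smallest SD of the regulators named here (7.94 ± 0.38). Spib, an Ets factor also known from lymphocytes, differed by 9.26 ± 0.90 and the microtubule-linked kinase Dclk1 by 8.75 ± 1.37. Genes better known from blood cells, such as Fyb (8.05) and Vav1, were higher here. The T cell markers summed to at most 24.3 TPM and the myeloid markers to at most 46.6 TPM in any tuft cell. B and plasma cell markers summed to at most 53.8 TPM and were above 0 in 3 of the 7 cells. Whether blood cells add to these genes was not tested. Sox9 was higher in tuft cells as well (4.07 ± 0.45), with Kit (6.20 ± 0.49) and Cd24a (5.94 ± 0.50), which had 5279.9, 12262, 10684 and 6435 TPM.

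The outputs of tuft cells include leukotrienes, prostaglandins and interleukin 25. Of 21 listed genes 15 were kept and 9 were higher, with a median difference of 5.05. Alox5ap, the protein that presents arachidonic acid to 5-lipoxygenase, had 3114, 2213, 3705 and 2515 TPM and the smallest SD of the leading tuft genes (10.82 ± 0.23). The lipoxygenase Alox5 differed by 8.43 ± 1.16 and leukotriene C4 synthase Ltc4s by 8.21. All 3 were above 0 in 7 of 7 cells. The cyclooxygenase Ptgs1 and choline acetyltransferase Chat were above 0 in 6 of 7 cells, both at 0 in the WT M1 cell, and Il17rb in 6. Interleukin 25 itself (Il25) was above 0 in 2 of 7, with a highest level of 143.2 TPM, and the succinate receptor Sucnr1 in 2. The short-chain fatty acid receptor Ffar3 was steady over animals at 8.03 ± 0.42.

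Structural genes were the broadest group, with 26 of 37 kept genes higher and a median difference of 5.17. The actin-binding Avil had 113.1, 1374, 1376 and 1099.7 TPM and differed by 9.06 ± 1.98, and the alpha-tubulin Tuba1a had 74.8, 2988, 2729 and 1964 TPM (8.92 ± 2.56). In both, the WT M1 cell lay far below the other 3 animals. Lrmp (10.29 ± 0.80) and Sh2d7 (9.47 ± 0.64), whose roles in tuft cells are less known, were among the 5 leading genes. The cell of KO M2 with the lowest tuft marker sum (1791 TPM, against 14861 TPM in the highest cell) also held 5950.1 TPM of Paneth markers, and leaving it out with the other low-marker cells left 8 of the 11 taste genes and 14 of the 21 regulators then kept higher.

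The genes lower in tuft cells rest on few cells and many are at 0. The carboxylesterase Ces2e was listed at 0 in all 7 cells, against means of 31.4 to 1901 TPM in the 6 types, as was Hes1, against 5.45 to 95.1 TPM. Krt19 (-7.84 ± 3.79), the invariant chain Cd74 (-7.20 ± 2.20), H2-Ab1 (-7.16 ± 3.23) and Reg3g (-7.09 ± 3.86) followed. Cd74 and H2-Ab1 were at 0 TPM in both WT animals, and H2-Ab1 reached 178.8 TPM in KO M1. Alox5ap, Lrmp and Trpm5 were listed at 0 in all 70 Goblet cells. Against Goblet cells tuft cells were higher in Rgs13 (11.12 ± 1.11) and Sh2d7 (9.44 ± 0.55) and lower in Zg16 (-14.66 ± 2.53). The mucin chaperone Agr2 was listed at 0 TPM in all 7 tuft cells against a mean of 25239 TPM in Goblet cells. Promoters were found for 75.5% of the higher tuft genes. TGACGTCA was in 6 of them (4.05%, against 2.94% of kept genes) and CAGATG in 15 (10.1%, against 9.66%). CTTTGAA was in 5 (3.38%, against 3.49%) and CTTTGAT in 6 (4.05%, against 2.27%). ATGCAAAT, the octamer bound by POU factors, was in 9 (6.08%, against 1.39%). These too are matches of letters, and binding was not measured.

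A pattern shared by all 3 types was asked for as a level at least 1 (log2) beyond the highest or the lowest of the 6 reference types in each of the 3. No gene was higher in this way (0 of 9641, 0.0%) and 2.34% were lower, or 1.504% without WT M2 and 3.91% without KO M2. Isx, a homeobox gene that limits vitamin A uptake in the gut, had the widest gap (3.50): it averaged 27.7 TPM in Paneth, 22.3 TPM in enteroendocrine and 15.9 TPM in tuft cells and from 126.05 to 222.9 TPM in the 6 types. It was above 0 in 8 of 22, 8 of 32 and 3 of 7 cells. The serine protease Prss32 (gap 2.98) averaged 91.6, 40.7 and 56.3 TPM and was above 0 in 7, 8 and 2 cells. Mettl7b (2.88), Hs3st1, which modifies heparan sulfate (2.77), the growth-arrest ligand Gas6 (2.73), the complex I subunit Ndufs5 (2.52), Mcoln2, Plek2, Mettl20 and B3galt4 came next. Ndufs5 was above 0 in 3 of 22, 3 of 32 and 1 of 7 cells, so its gap rests on few cells.

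The shared pattern depends on scale. After rescaling without secreted products 55 genes were lower, 53 of them also lower as deposited, and Mettl7b (gap 2.80), Isx (2.69), Hs3st1 (2.66), Ndufs5 (2.51) and Prss32 (2.18) still led. The gap is one of mean log2 levels, which animals at 0 lower. Rescaled, Ndufs5 averaged 34.3 TPM in tuft cells, against 46.4 to 78.3 TPM in the 6 types. Rescaled, 3 genes were higher: the actin-binding Dbn1 (gap 1.68), Cryba2 (1.06) and Fbxl16 (1.002). They rest on few cells outside the enteroendocrine type: Dbn1 was above 0 in 6 of 22 Paneth, 14 of 32 enteroendocrine and 2 of 7 tuft cells, and Cryba2 in 3, 22 and 2.

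On the deposited scale some genes were called in a pair of types. Cd24a and Kit were higher in both enteroendocrine (Cd24a at 1874, 1500.2, 1140.0 and 1746 TPM) and tuft cells, and Hepacam2 and Selm, secretory genes, in both as well. In Paneth cells Cd24a was at 169.4, 207.45, 150.2 and 143.8 TPM and Kit at 4.18, 9.7, 4.46 and 0.44 TPM. Sct was higher in tuft cells too (4.08 ± 1.69), with 333.3, 36.3, 257.06 and 106.5 TPM and 5 of 7 cells above 0, far below its level in enteroendocrine cells. Hes1 was lower in both enteroendocrine and tuft cells. After rescaling without secreted products Cd24a, Selm and Sct were called higher in Paneth cells as well, so they are not particular to the pair. Kit and Hepacam2 were not called in Paneth cells on either scale.

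**Figure D4:**
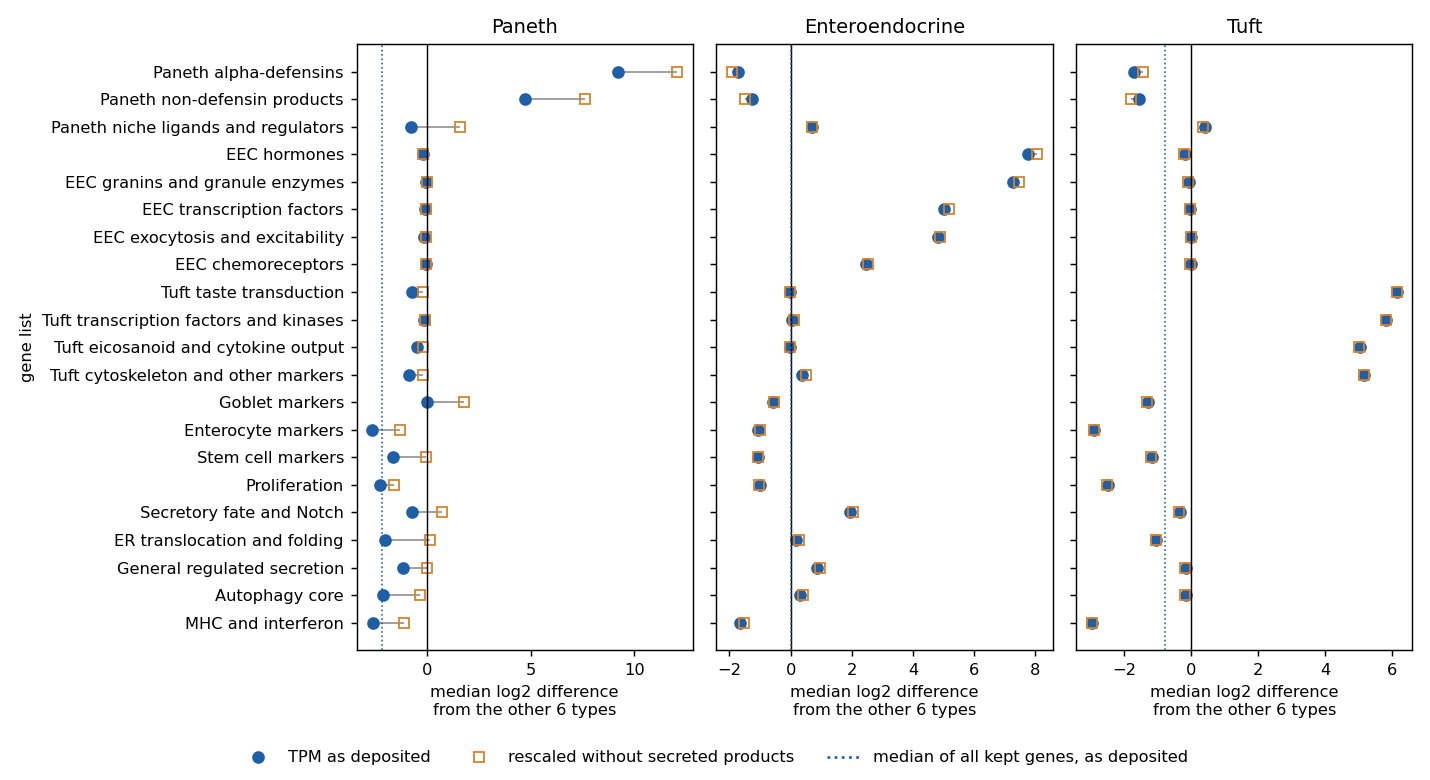
Median log2 difference from the 6 reference types for 21 gene lists in Paneth, enteroendocrine and tuft cells, as deposited (circles) and rescaled without secreted products (squares), with the median of all kept genes as a dotted line. The alpha-defensins lie at 9.21 in Paneth cells, granule genes at 7.28 in enteroendocrine cells and taste genes at 6.16 in tuft cells, while the Paneth niche list lies at -0.77 in Paneth cells, and nearly all lists shift for Paneth cells on rescaling.

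WT and KO cells are set side by side as a description only, with 2 animals a genotype and as few as 1 cell in an animal. Atg16l2 itself was above 0 TPM in 2 of 15 WT and 0 of 7 KO Paneth cells, in 4 of 12 WT and 0 of 20 KO enteroendocrine cells, and in 0 of 3 WT and 0 of 4 KO tuft cells. Since the gene was also at 0 in most WT cells, a 0 in a KO cell checks its label little, and no limit on expression follows from it. The 4 WT enteroendocrine cells were all of WT M1.

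In Paneth cells 526 kept genes (5.46%) had both KO animals above both WT animals and 762 (7.9%) below, and the median KO minus WT difference was 0.38 on the log2 scale. The leading product genes did not separate by genotype: Defa24 differed by -0.55 and Lyz1 by -1.41, with KO M1 inside or above the WT values and KO M2 below. Over single cells the median of Lyz1 was 34837 TPM in 15 WT and 22776 TPM in 7 KO cells, and that of Defa24 was 224018 and 203509 TPM. The largest separations were Pbk (3.99) and Ccne1 (3.86), both cell cycle genes at 0 TPM in both WT animals and at 89.9 and 52.1 TPM in KO M2, and Tspan1 (-2.91), Fkbp11 (-2.91) and Nob1 (-2.88). KO M2 had 3 Paneth cells, 2 of them the low-defensin cells with high proliferation genes, and the part of these cells in the difference was not tested.

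In enteroendocrine cells 1977 genes (20.5%) lay above and 1034 (10.7%) below, with a median of 0.30. Sst (-13.12) and Gip (-10.90) were the hormones at the extreme: Sst was above 0 in 2 of 12 WT and 1 of 20 KO cells and Gip in 5 of 12 and 1 of 20. Asic5, an ion channel gene, followed (-8.70), above 0 in 3 WT cells and 1 KO cell. Zfp511 (6.08), Foxred1 (5.84) and Nme6 (5.57) were at 0 TPM in both WT animals and above 0 in 10, 11 and 6 of 20 KO cells. Chgb differed by 0.42 and Chga by -0.59. In tuft cells 2140 genes (22.2%) lay above and 560 (5.81%) below, with a median of 0.75 from 3 WT and 4 KO cells, and Trpm5 differed by 1.39.

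The share of each type among an animal's cells overlapped or rested on few cells. Paneth cells made up 3.57% and 5.39% of the WT and 2.33% and 1.76% of the KO animals' cells, a difference of -2.44 percentage points that had the same sign in run 1 (-2.99) and run 2 (-1.82). Beside it stand the 4 Goblet-labelled cells of KO M1 in run 2 with 46.7% to 91.3% alpha-defensin, which are as many as the 4 Paneth-labelled cells of that animal. Enteroendocrine cells made up 5.36% and 1.80% of the WT and 2.91% and 8.82% of the KO animals' cells, so the genotypes overlapped, and the difference of 2.29 points was 5.73 in run 1 and -1.25 in run 2. Tuft cells made up 0.595% and 1.198% against 1.16% and 1.18%, and the difference of 0.27 points was 1.15 in run 1 and -0.65 in run 2.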

How the data were processed

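The authors deposited 1 table of TPM values for 677 cells and 23420 genes. Per the submitters' processing notes, Bowtie, TopHat and RSEM were used, with no versions, and the genome build is not given in the sources used here. Per the labels' protocols, the chemistry was SMART-Seq2, and a kit for droplets is named beside it without saying for which cells. All columns were matched to a library by title (0 left over). The sums per cell ran from 999999.17 to 1000000.78 TPM, so read depth is unknown and no counting interval can be given, and no mitochondrially encoded gene was listed (0), so no filter on such reads could be applied. No cell was removed and no doublet caller was run.

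Titles gave the run, the animal code and the type of each cell. The labels do not spell out that M1 and M2 are animals, and whether M1 of run 1 and of run 2 is the same animal is not stated. Cells of 1 type and animal were averaged as TPM and then put on the log2(TPM + 1) scale, a pseudocount of 1. A gene was kept (9641 genes) if 1 of the 9 types or more averaged at least 10 TPM and at least 5 cells were above 0 TPM. Calls and the shared pattern follow the thresholds given with the results. No test was run and no p-value is given, and the spread is between 4 animals. Genes were named by size of difference: 12 higher and 5 lower per type, up to 6 per direction against another type, 10 shared, 4 per list and 3 per direction between genotypes, leaving out names of the Gm, Rik, AY, LOC, AI and BC kinds. Certain genes are not reported here. Where a text names fewer, the first of the others are given, and single genes of the fixed lists and markers are added. The cell types, members and lists were chosen with earlier results of these data known.

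Alternatives were another pseudocount (0.1 or 10), no filter or one of 50 TPM, log2 values averaged over cells, the median cell, the highest or lowest of the 6 types as reference, each run alone, TPM rescaled without ribosomal protein genes, other hormone thresholds (10 or 1000 TPM) and each animal left out. Rescaled TPM, low-marker cells left out (Paneth under 20% alpha-defensin, enteroendocrine under 1000 TPM of Chga and Chgb, tuft under 2000 TPM of markers), defensin-rich cells of other types left out and the hormone groups were added after the data were seen. Counts of genes between pairs of types moved widely under these and are not given, and named genes are given in their place. Motifs were searched on both strands of RefSeq promoters (GRCm38.p6). Python 3.11.15, numpy 2.4.6 and pandas 2.3.3 were used, and the scripts were tested on simulated data.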

Additional observations from a re-analysis of the deposited data

Results flagged for a closer look

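Of 60 sets of 4 animal values examined, 5 held 1 animal far from the other 3 by Dixon's criterion, and chance flags about 1 in 20. In Paneth cells Gstm3 differed from the 6 types by -1.06 in WT M1 and by -5.97 to -5.49 in the others. In enteroendocrine cells Fgfbp1 differed by -2.18 in KO M2 and by -6.56 to -6.46 in the others. In tuft cells WT M1, which is 1 cell, stood apart for Tuba1a (5.09, others 9.90 to 10.47) and for Pygl (5.61, others 9.67 to 10.18). H2-Ab1 in tuft cells differed by -2.35 in KO M1 and by -9.07 to -8.21 in the others.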

How the results depend on the processing

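Of 2172 comparisons of a named gene's difference with an alternative, 2171 kept the direction and 434 moved by more than 1 SD between animals. Part of these outcomes was fixed in advance. A gene called higher or lower has the same direction in each animal, so leaving out an animal could not turn it. A filter on low values does not alter a gene's difference. Such comparisons say nothing of steadiness. The 1 difference that turned was that of Mmp7 in Paneth cells, to -1.01 against the highest of the 6 types (Goblet). Numbers of genes past the thresholds moved widely, and the cause was not tested except where an alternative holds fewer genes or cells by construction. They are given as percent of 9641, the number of kept genes, under every setting, so that they compare as counts do. No filter on low values, rescaling without ribosomal protein genes and leaving out defensin-rich cells of other types kept all 8 gene counts within 1.5 times.

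For genes higher or lower in Paneth cells, 0.467% and 24.5% became 0.902% and 1.53% with TPM rescaled without secreted products. The lower genes were 3.56% with a pseudocount of 10, 11.1% with a filter of 50 TPM, 12.4% with log2 values averaged over cells, 4.63% against the lowest of the 6 types, 13.8% in run 1, 75.9% in run 2 and 78.6% without low-marker cells, which leaves 1 Paneth cell in KO M2. Leaving out each animal gave 0.467% to 0.664% higher and 22.5% to 58.3% lower. For enteroendocrine cells, 5.58% higher and 2.95% lower became 2.14% and 0.913% with a pseudocount of 10, 2.92% and 1.93% with the filter of 50 TPM, 3.26% and 4.91% with averaged log2 values, 2.83% and 7.05% with the median cell and 2.26% and 0.187% against the highest or lowest type. The lower genes were 4.88% in run 2 and 5.94% without low-marker cells. Leaving out each animal gave 5.87% to 7.86% higher and 3.298% to 5.81% lower. For tuft cells, 2.03% higher and 9.51% lower became 1.17% and 2.22% with a pseudocount of 10, 3.45% and 4.004% with averaged log2 values, 5.75% and 2.23% with the median cell, 1.01% and 2.32% against the highest or lowest type and 13.7% and 23.4% in run 1, which holds tuft cells of KO M1 alone. The lower genes were 4.06% with the filter of 50 TPM. Leaving out each animal gave 2.34% to 4.07% higher and 10.4% to 16.04% lower.

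Of the shared pattern, 0.0% higher and 2.34% lower became 0.0207% and 6.31% with a pseudocount of 0.1, 0.0415% and 1.43% with the median cell and 0.0311% and 0.571% rescaled. The lower genes were 0.415% with a pseudocount of 10, 1.33% with the filter of 50 TPM, 0.985% with averaged log2 values and 6.099% without low-marker cells, and each animal left out gave 0.0% to 0.0% higher and 1.504% to 3.91% lower. Fewer enteroendocrine cells by construction lowered the cells led by a hormone: Sct led 2 in run 2, Cck 2 in run 1 and 2 in run 2, Tac1 4 in run 1 and 3 in run 2, Gip 0 in run 1, and 2 cells had no hormone in run 2. Sct led 5 cells at a threshold of 1000 TPM, and 5 cells had no hormone at 10 TPM. With each animal left out Sct led 4 to 8 cells, Cck 2 to 4, Tac1 4 to 7, Gip 0 to 2 and none 3 to 7. The KO minus WT share of enteroendocrine cells was -1.25 points in run 2, and that of tuft cells 1.15 in run 1 and -0.65 in run 2. No paired analysis was possible because no test was run and the numbers only name animals. Depth is unknown for these TPM values, so a gene listed at 0 in a cell may be undetected.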

Other observations

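Lists that belong to none of the 3 types were also followed. Of all kept genes, 9.51% were lower in tuft and 2.95% in enteroendocrine cells, the shares to set beside the counts below. Of 19 kept antigen presentation and interferon genes, 10 were lower in tuft cells (median difference -2.95, against -0.79 for all genes), among them the class II genes H2-Aa, H2-Eb1 and Cd74 and their activator Ciita. In enteroendocrine cells 3 of the 19 were lower, H2-Aa, the peptide transporter Tap1 and the immunoproteasome subunit Psmb9 (median -1.65, against -0.0001 for all genes). In Paneth cells 2 of the 19 were lower as deposited, a smaller share than the 24.5% of all kept genes (median -2.56 against -2.14), and 0 after rescaling (-1.08 against -0.72). This depends on the low-defensin cells. Without the low-marker cells, which leaves 1 Paneth cell in KO M2, 18 of the 19 were lower. Most of all kept genes were also lower in Paneth cells under this setting, so the count alone sets these genes little apart. Their median was then -4.65, against -2.97 for all genes. Of 28 proliferation genes 8 were lower in tuft cells (median -2.49), against 9.51% of all kept genes. In enteroendocrine cells 0 of the 28 were lower (-1.01), which is near the 2.95% of all kept genes. In Paneth cells 7 of the 28 were lower with a median of -2.24, near the 24.5% and -2.14 of all kept genes, and rescaled 3 were lower with a median of -1.56. Without the low-marker cells 24 of the 28 were lower, as were most of all kept genes, with a median of -3.79 against -2.97 for all genes. Enterocyte markers were lower for 7 of 16 in tuft cells (median -2.89), among them the fatty acid binding protein Fabp2 and the glucose transporter Slc5a1.

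Of 37 kept autophagy genes, 16 were lower in Paneth cells, a larger share than the 24.5% of all kept genes. Their median of -2.12 was close to the -2.14 of all genes. After rescaling 0 were lower, against 1.5% of all genes (median -0.31 against -0.72). In enteroendocrine cells 2 autophagy genes were higher, Map1lc3a and Calcoco1 (median 0.32), a share near the 5.58% of all kept genes. In tuft cells Ulk1 was higher while Atg4a and Atg10 were lower (-0.15), against 2.03% and 9.51% of all kept genes. Genes of protein entry and folding in the endoplasmic reticulum, where secreted proteins are made, were not higher in Paneth cells on the deposited scale. Of 48 such genes 9 were lower (median -1.98), a smaller share than the 24.5% of all kept genes. After rescaling 1 was higher and 0 lower, with a median of 0.14 against -0.72 for all genes. Goblet markers included 3 that were higher in Paneth cells, Muc2, Ccl6 and Rep15 (15 kept, median 0.04), against 0.467% of all kept genes. In enteroendocrine cells 3 of the 15 were higher, Tff3, Agr2 and Fcgbp, and 2 were lower, Muc2 and Ccl6, against 5.58% and 2.95% of all kept genes. Agr2 was above 0 TPM in 12 of 32 cells. Without the low-marker cells 1 of the 15 was higher and 2 lower in enteroendocrine cells. In Paneth cells 2 were then higher and 3 lower. In the enteroendocrine cells, the secreted lectin Reg4 reached 144633 TPM in the cell led by Ucn3 and was above 100 TPM in 5 of the 13 Tac1 cells.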
